A study of Mus musculus with 10 samples.

Results

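The WASp family and its WIP partners were followed as 7 listed genes, Was, Wasl, Wipf1, Wipf2, Washc1, Whamm and Jmy. They were picked by gene symbol from a table of 57010 mouse gene identifiers, and the list was chosen with earlier results of these data known. All 7 had a row, and all 7 were among the 12455 genes tested, those averaging 10 or more normalized reads across the 10 libraries. RNA sequencing was done on bone marrow-derived macrophages, which are grown from marrow precursors, here for 7 days with recombinant mouse M-CSF at 20 ng/mL. The groups were wild type (WT) unconfined (n = 2, replicates 1 and 3), WASp KO (WKO) unconfined (n = 2, replicates 1 and 3), WT confined (n = 3, replicates 2, 3 and 6) and WKO confined (n = 3, replicates 1, 2 and 5). Confined cells were held under a ceiling of PDMS micropillars for 1 h at a height of 3 µm; unconfined libraries carry the label Control, and how those cells were handled is not described. The question was whether the relatives of WASp change when Was is lost, and whether either genotype changes them under confinement. The labels give neither the kind of deletion nor the age or strain of the mice, and do not say whether replicates came from separate animals, so p-values measure only the spread between these libraries.

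WASp, the product of Was, and N-WASp, the product of Wasl, are nucleation promoting factors: once Cdc42 and phosphoinositides release them from an autoinhibited fold, their C-terminal ends bring actin monomers to the Arp2/3 complex, which starts a branched filament. WASp is made in blood cells, where it builds the podosomes of macrophages, and N-WASp is made in most tissues; WIP, encoded by Wipf1, and its relative WIRE, encoded by Wipf2, bind both, and WASp protein is unstable without WIP. The other 3 listed genes encode factors that act elsewhere in the cell: WASH (Washc1) on endosomes, WHAMM (Whamm) on membranes of the early secretory pathway and on autophagosomes, and JMY (Jmy), which can nucleate filaments itself and also moves into the nucleus as a cofactor of p53.

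The libraries held between 13295701 and 19329908 reads, so that 3 reads, the detection floor used here, equalled a normalized read count between 2.35 and 3.59. All 10 macrophage markers checked were detected in every group. Their summed normalized read count ranged from 206045 to 229770 in the WT libraries and from 262408 to 338186 in the WKO libraries. Much of this sum was Lyz2, which alone ran from 100507 to 200203 over the 10 libraries. For the mean of both conditions 7 of the 10 markers had a log2 fold change above 0. In that comparison limma called 3 of the 10 higher in WKO and 0 lower, where 2.9% and 2.67% of all tested genes were. Markers of other cells also ranged higher in WKO libraries. Neutrophil and progenitor markers summed to between 2943 and 11510 in the WT libraries and to between 8018 and 31209 in the WKO libraries, and B cell markers to between 410 and 874 in the WT and between 1572 and 5198 in the WKO libraries. Stromal markers reached 9867 in WKO confined replicate 5, against between 184 and 3258 in the other 9 libraries, dendritic cell markers did not exceed 60.2, and the 4 T cell markers were all at 0 in both WT groups and summed to at most 5.26 in WKO libraries. The part of these cells in the results was not tested; in bulk libraries such as these, fewer cells of a type and less RNA per cell cannot be told apart.

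The genes lie on 7 chromosomes and were annotated from GENCODE M21 on GRCm38. Was (ENSMUSG00000031165) is at X:8081453-8090498 on the minus strand, with 12 exons and 2114 bases in its longest transcript. Wasl (ENSMUSG00000029684) is at 6:24613805-24665009, also on the minus strand, with 11 exons and 4352 bases. Jmy (ENSMUSG00000021690) is at 13:93430101-93499808 on the minus strand, with 11 exons and 8776 bases, the longest transcript of the 7. Wipf1 is at 2:73429610-73529734, Wipf2 at 11:98863638-98905040, Washc1 at 17:66111545-66120503 and Whamm at 7:81571266-81596836. Sequence shared with other genes was limited, and its effect on the counts was not tested: at 95% identity over stretches of at least 100 bases, the most that another gene covered was 7.00% of Was (Psmd11), 4.72% of Washc1 (Setd4) and 2.08% of Wipf2 (Adat1), and nothing was found for Wasl, Wipf1, Whamm or Jmy.

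The 250 bases before the transcription start are shown for the member that was lost, its nearest relative and the member that rose with confinement, on GRCm38.p6 from RefSeq, 5′ to 3′ on the gene's own strand (minus for all), with CG dinucleotides in capitals.
Was chrX:8090492-8090741: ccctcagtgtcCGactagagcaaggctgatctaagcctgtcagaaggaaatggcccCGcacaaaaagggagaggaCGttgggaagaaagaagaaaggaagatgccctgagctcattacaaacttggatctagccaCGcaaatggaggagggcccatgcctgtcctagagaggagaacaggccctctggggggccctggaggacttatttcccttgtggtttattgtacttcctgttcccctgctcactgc
Wasl chr6:24664996-24665245: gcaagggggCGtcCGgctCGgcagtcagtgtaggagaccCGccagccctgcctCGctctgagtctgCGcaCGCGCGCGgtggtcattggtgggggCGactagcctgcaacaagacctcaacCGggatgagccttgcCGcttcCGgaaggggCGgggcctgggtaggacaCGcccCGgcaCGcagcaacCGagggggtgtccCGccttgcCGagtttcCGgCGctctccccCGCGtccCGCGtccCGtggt
Jmy chr13:93499809-93500058: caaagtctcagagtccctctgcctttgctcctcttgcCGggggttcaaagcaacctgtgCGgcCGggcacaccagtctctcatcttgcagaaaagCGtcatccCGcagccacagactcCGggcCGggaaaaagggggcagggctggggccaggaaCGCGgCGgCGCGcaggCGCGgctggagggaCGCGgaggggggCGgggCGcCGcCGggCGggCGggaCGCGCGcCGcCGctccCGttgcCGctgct
The Was window held 4 CG dinucleotides, fewer than the median of 6 over 32851 RefSeq promoters of this length (quartiles 2 and 16), while the Wasl window held 28 and the Jmy window 29. Fewer CG dinucleotides than in Was were found in 37.8% of promoters, fewer than in Wasl in 92.4% and fewer than in Jmy in 93.2%. Of 5 motifs searched on both strands, none was in these windows: GAGGAA (in 23.3% of promoters), TGACTCA (4.46%), TGACGTCA (1.55%), TATAAA (12.4%) and the CArG box (1.47%). No match says only that these letters are not in the window.

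Was transcripts were far lower in every WKO library, as the WASp KO label has it. The normalized read count of Was was 1308 and 1639 in the WT unconfined libraries and 154 and 141 in the WKO unconfined libraries. After confinement it was 1618, 1570 and 1649 in WT and 98.9, 96.9 and 125 in WKO. No WKO library came near a WT library, but none was at 0: the WKO values rest on between 92 and 156 reads per library, far above the floor. On the log2(normalized read count + 1) scale, without confinement Was fell by 3.30 (SE 0.17; limma adjusted p = 4.38e-06). With confinement it fell by 3.91 (SE 0.14; limma adjusted p = 5.99e-08). Group means in WKO were 10.0% of those in WT without confinement and 6.62% with it. Over the mean of both conditions Was had the lowest fold change and the smallest p of all 12455 genes (-3.61 on the log2 scale, limma adjusted p = 1.003e-08). The table gives 1 value per gene, so the exons from which the remaining reads came were not analysed here.

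Beside this, the remaining Was reads in WKO cells were lower after confinement. The unconfined libraries (154 and 141) and the confined ones (98.9, 96.9 and 125) did not overlap, and the log2 fold change was -0.47 (SE 0.16, unadjusted p = 0.0120), but it missed the threshold after adjustment over all genes (limma adjusted p = 0.199). In WT the log2 fold change of Was with confinement was 0.14 (limma adjusted p = 0.787), and the unconfined libraries, at 1308 and 1639, spanned the confined ones. The difference between these effects, the interaction, was -0.61 (95% interval -1.10 to -0.12, limma adjusted p = 0.999).

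**Figure D1:**
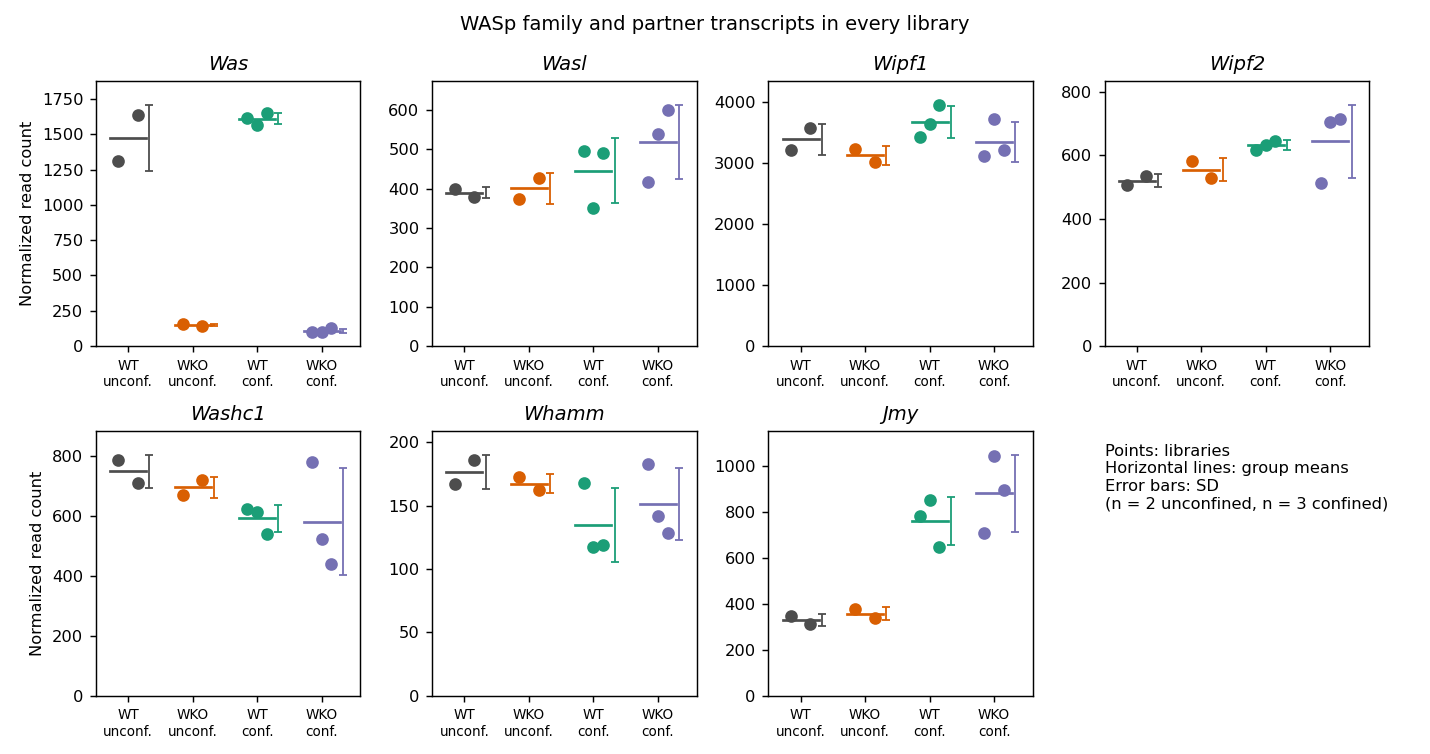
Normalized read count (vertical axes, starting at 0) of the 7 listed genes in the 10 libraries, by group (horizontal axes); points are libraries, horizontal lines group means and error bars SD (n = 2 unconfined, n = 3 confined). Was is low in all WKO libraries, Jmy is high in all confined libraries of both genotypes, and the WT and WKO points of the other genes overlap within each condition.

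Against this loss of Was, no relative passed the test in either condition. In unconfined cells 1 of the 7 genes was called (adjusted p under 0.05), Was itself, where 0.145% of all tested genes were called; in confined cells it was again 1 of 7, where 2.59% were called; and for the mean of both conditions 1 of 7, where 5.57% were called. Counted by direction, calls that were lower in WKO made up 0.0963%, 1.2% and 2.67% of all tested genes, and calls that were higher 0.0482%, 1.38% and 2.9%. The 6 relatives gave 0 calls in all 3 comparisons with limma, 0 at an unadjusted p under 0.05, where 9.6%, 16.8% and 20.2% of all tested genes were, and 0 with edgeR on the recovered reads. Their lowest limma adjusted p was 0.854 in unconfined cells, 0.573 in confined cells and 0.437 for the mean of both. The median log2 fold change of the 6 was -0.02, 0.09 and 0.05 in the same order, where the median over all tested genes was 0.0022, 0.0036 and 0.0033.

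These are limits and not proof of equal levels. Over the 6 relatives, the 95% intervals of the WKO against WT difference reached from 35.1% lower to 45.5% higher in unconfined cells, from 27.6% lower to 53.0% higher in confined cells and from 24.2% lower to 35.1% higher for the mean of both. In simulated counts with the depths of these libraries, a 2-fold change was called for 50 of 100 changed genes in the unconfined comparison and for 68 of 100 in the confined one. In these, 10 and 6 unchanged genes were called. The changed genes were drawn at random from all tested genes, so these shares are not those of the 6 relatives. The simulation also gave each gene the same spread in all groups, while real replicates differed more among WKO confined than among WT confined libraries. The intervals of the relatives given above did not reach a 2-fold change. Was was also the only member whose WT and WKO libraries did not overlap, in each condition. Such a lack of overlap was seen for 44.9% of all tested genes in unconfined cells, with 2 libraries against 2, and for 21.1% in confined cells.

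Wasl, which encodes the closest relative of WASp, had overlapping values in both genotypes and did not pass the test. Its normalized read count was 400 and 380 in WT unconfined, 373 and 428 in WKO unconfined, 496, 351 and 490 in WT confined and 417, 538 and 601 in WKO confined libraries. WT and WKO values overlapped in each condition, and WKO confined replicate 5 was the highest of all. The log2 fold change, WKO against WT, was 0.04 in unconfined cells (95% interval -0.43 to 0.50) and 0.22 in confined cells (-0.16 to 0.60), with limma adjusted p = 0.981 and 0.588. For the mean of both conditions it was 0.13, a fold of 1.09 with a 95% interval of 0.886 to 1.35 (limma adjusted p = 0.669).

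Wipf1, which encodes WIP, the chaperone of WASp, was the most abundant of the 7 in read count. It stood at 3205 and 3567 in WT unconfined, 3233 and 3017 in WKO unconfined, 3421, 3638 and 3944 in WT confined and 3106, 3715 and 3214 in WKO confined libraries. Both genotypes overlapped in each condition, although the WKO means were below the WT means. For the mean of both conditions the log2 fold change was -0.12 (95% interval -0.30 to 0.05, limma adjusted p = 0.437), the narrowest interval among the relatives. Wipf2, which encodes WIRE, stood at 507 and 535, at 581 and 531, at 616, 633 and 647, and at 513, 705 and 715 in the same group order. Its genotype difference was 0.05 (95% interval -0.19 to 0.29, limma adjusted p = 0.850), and the 3 WKO confined libraries spanned the WT ones.

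The genes for nucleation promoters of inner membranes did not pass the test for genotype either. Washc1 was 788 and 710 in WT unconfined, 672 and 722 in WKO unconfined, 622, 614 and 541 in WT confined and 782, 522 and 439 in WKO confined libraries. The WKO confined libraries varied most, with replicate 1 above all other confined libraries and replicate 5 below them. The genotype difference over both conditions was -0.09 (95% interval -0.40 to 0.23, limma adjusted p = 0.805), and 0.0044 without WKO confined replicate 5. Whamm, the gene with the lowest read counts of the relatives, was 167 and 186, then 173 and 162, then 168, 117 and 119, then 183, 142 and 128 in the same group order. Its genotype difference was 0.05 (95% interval -0.31 to 0.40, limma adjusted p = 0.923) and its groups overlapped; exons of Whamm overlap an unconfirmed transcript, Gm45698, on the same strand, so its counts are less certain.

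**Figure D2:**
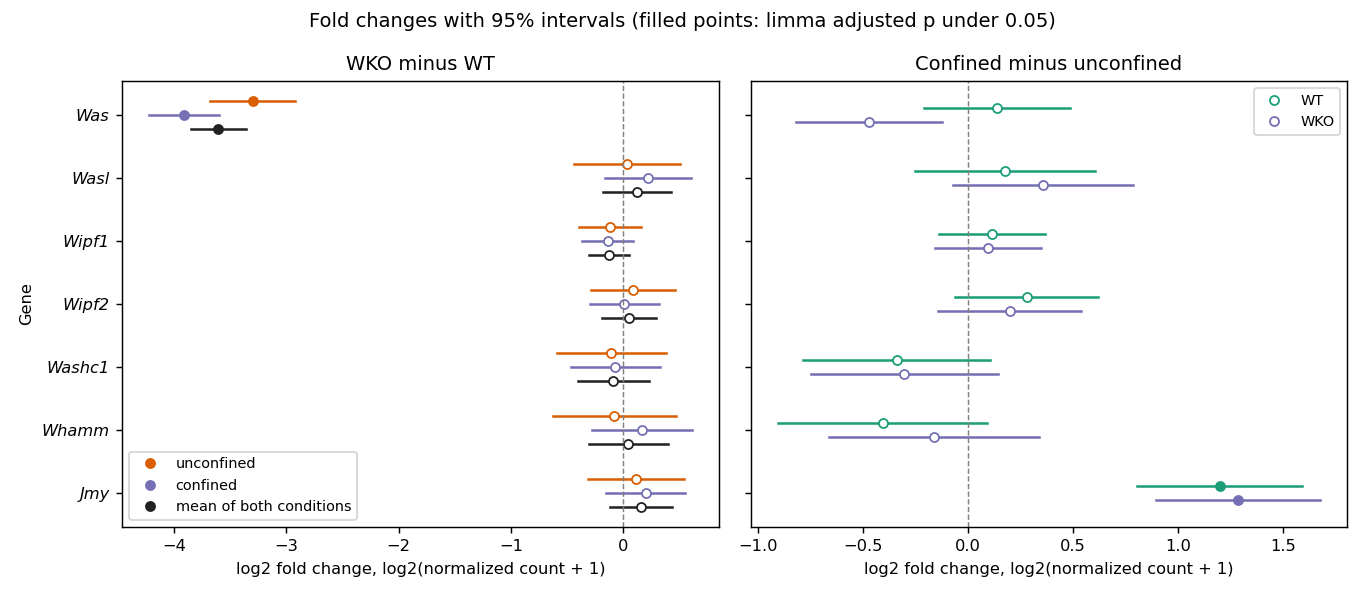
Log2 fold changes of the 7 genes with 95% intervals from limma (horizontal axes, log2(normalized read count + 1) scale), for WKO minus WT in each condition and for their mean on one side and confined minus unconfined in each genotype on the other. Intervals of the 6 relatives all cross 0 in the genotype comparisons, while Was lies at -3.30 and -3.91; for confinement, the intervals of Jmy lie above 0 in both genotypes.

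Jmy was higher in confined than in unconfined libraries, and no other member was called for confinement. In WT 1 of the 7 genes was called, where 1.16% of all tested genes were called, and in WKO 1 of 7, where 1.72% were called; calls that were higher made up 0.891% and 1.49%, and calls that were lower 0.265% and 0.233%. The start region of Jmy is rich in CG dinucleotides, with 29 in 250 bases. The start regions annotated for Wipf1 held 29, 3 and 1, and that of Wasl 28, and neither gene was called with confinement. A link between CG dinucleotides and confinement was not tested. The normalized read count of Jmy was 349 and 310 in WT unconfined, 376 and 337 in WKO unconfined, 781, 851 and 648 in WT confined and 706, 1040 and 893 in WKO confined libraries. All 6 confined libraries were above all 4 unconfined ones, by a wide gap. Jmy rose 2.29-fold in WT (log2 1.20, 95% interval 0.81 to 1.59, limma adjusted p = 0.00726) and 2.44-fold in WKO (log2 1.29, 95% interval 0.90 to 1.68, limma adjusted p = 0.00404). Of the 111 genes called higher in WT, 83 had a larger log2 fold change than Jmy, and of the 185 called higher in WKO, 125 did.

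The size of the Jmy difference held up better than its call. Leaving out 1 library at a time gave log2 fold changes between 1.11 and 1.31 in WT and between 1.16 and 1.44 in WKO. The call was lost without WT unconfined replicate 1 (limma adjusted p = 0.0724), without WT unconfined replicate 3 (limma adjusted p = 0.0955) and, in WKO, without WKO unconfined replicate 3 (limma adjusted p = 0.0590). Each of these leaves 1 unconfined library in that genotype, which the fit takes to vary like the other groups. Without WKO confined replicate 5, the library with the high stromal markers, the log2 fold change in WKO was 1.27 (limma adjusted p = 0.0036). Over all alternatives the limma or edgeR adjusted p ran from 0.00193 to 0.0955 in WT and from 0.00123 to 0.0658 in WKO.

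The rise of Jmy did not differ detectably between the genotypes. The interaction was 0.09 on the log2 scale (95% interval -0.46 to 0.64, limma adjusted p = 0.999), and the WKO against WT difference of Jmy was 0.11 in unconfined cells (limma adjusted p = 0.923) and 0.20 in confined cells (limma adjusted p = 0.586). None of the 7 genes passed the interaction test, where limma called 0% of all tested genes; at an unadjusted p under 0.05 it was 1 of the 7, Was, where 2.07% of tested genes were, and edgeR called 0. In simulated counts an interaction of 2-fold was called for 21 of 100 changed genes, and one of 4-fold for 75 of 100. These genes were drawn at random from all tested genes, with the same spread in all groups, so the shares are not those of the 7.

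The other members showed smaller differences with confinement that missed the threshold. At an unadjusted p under 0.05, 1 of the 7 genes stood in WT (Jmy) and 2 in WKO (Was and Jmy), where 12.2% and 14.1% of all tested genes did. In WT, libraries did not overlap for 3 of the 7 genes, Wipf2, Washc1 and Jmy, where 35.9% of all tested genes did not overlap; in WKO it was 2 of 7, Was and Jmy, where 28.3% did not. Wipf2 went from 507 and 535 to between 616 and 647 in WT (log2 0.28, limma adjusted p = 0.520), and Washc1 from 788 and 710 to between 541 and 622 (log2 -0.34, limma adjusted p = 0.555). In WKO the Washc1 difference was -0.30 (limma adjusted p = 0.547), but without WKO confined replicate 1 it was -0.54 and passed (limma adjusted p = 0.0384). Wasl differed by 0.17 in WT (limma adjusted p = 0.782) and 0.36 in WKO (limma adjusted p = 0.435), Whamm by -0.41 in WT (limma adjusted p = 0.523) and -0.16 in WKO, and Wipf1 by 0.11 and 0.09. The median of all 7 genes was 0.14 in WT and 0.09 in WKO, where all tested genes had medians of -0.0066 and -0.013.

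Per transcript length, the order of the family differed between WT and WKO cells. Levels were set as normalized read count per kilobase of the longest annotated transcript, which makes genes comparable only roughly. Places in the order depend on this length, also where libraries did not overlap. With the union of all exons as length, Was stood first in both WT groups and last in WKO confined cells. Wipf2 then stood above Wasl in both unconfined groups and in WT confined cells. In WT unconfined cells Wipf1 (716 ± 54.1 per kilobase, SD, n = 2) and Was (697 ± 111) stood together at the top with overlapping libraries, followed by Washc1 (258), Wasl (89.6), Wipf2 (74.3), Whamm (57.6) and Jmy (37.5), each apart from its neighbour. In WKO unconfined cells Was, at 69.9 ± 4.17, stood below Wasl (92.1) and Wipf2 (79.3) and above Whamm (54.5). After confinement Jmy moved up from last place: in WT confined cells, at 86.6 ± 11.7 (SD, n = 3), its libraries overlapped those of Wipf2 (90.2), which overlapped those of Wasl (102). In WKO confined cells Wasl (119), Jmy (100) and Wipf2 (91.9) overlapped, and Was (50.5) overlapped Whamm (49.2) at the bottom.

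The balance between the transcripts of WASp and N-WASp differed too. Per kilobase, Was was between 6.71 and 9.21 times Wasl in the 5 WT libraries. In the WKO libraries Wasl was the higher, between 1.18 and 1.47 times Was without confinement and between 2.05 and 2.70 times with it. With the union of all exons as length, Was stayed the higher in WKO unconfined replicate 1 (Wasl 0.936 times Was) and Wasl in the other 4 WKO libraries (1.17 to 2.15 times). Was made up between 87.0% and 90.2% of the sum of both in WT, between 40.5% and 45.9% in WKO unconfined and between 27.0% and 32.8% in WKO confined libraries. The sum itself was between 711 and 893 per kilobase in WT and between 142 and 197 in WKO. Wipf1, whose product binds both proteins, was between 0.823 and 0.954 times that sum in WT libraries and between 3.45 and 4.64 times in WKO libraries. These ratios are descriptions of RNA and carry no test beyond that of Was.

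**Figure D3:**
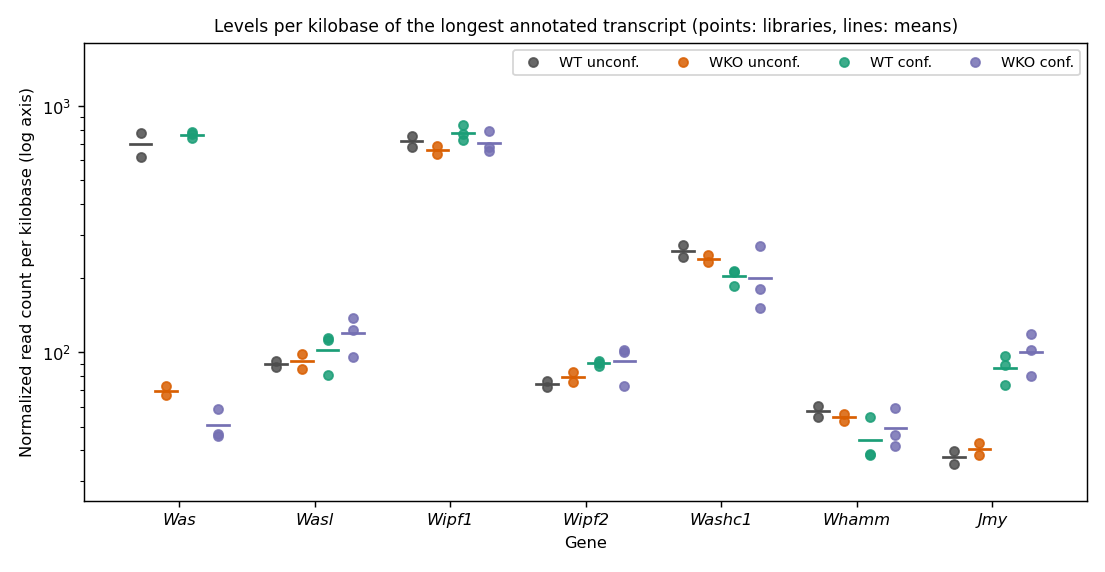
Normalized read count per kilobase of the longest transcript (log10 axis) for the 7 genes in each group; points are libraries and lines group means. Was lies beside Wipf1 in both WT groups, between 619 and 775 in unconfined libraries, and among the low members in both WKO groups, while Jmy is lowest in unconfined libraries and level with Wasl and Wipf2 in confined ones.

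No gene tested beside Was on the X chromosome passed the test. Of the 4 annotated protein-coding genes on each side, 6 passed the filter, namely Hdac6, Suv39h1, Wdr13, Rbm3, Tbc1d25 and Ebp, and none was called in any comparison; Glod5 was at 0 reads in all libraries, and Gata1 was below the filter. At an unadjusted p under 0.05, limma and edgeR each gave 1 of the 6 in unconfined cells, Rbm3, 0 in confined cells and 1 for the mean of both conditions, again Rbm3; it was 1 for confinement in WT (Wdr13), 1 in WKO (Rbm3) and 0 for the interaction. Of all tested genes 9.6%, 16.8% and 20.2% did so in the 3 genotype comparisons, 12.2% and 14.1% for confinement and 2.07% for the interaction. Suv39h1, a histone methyltransferase gene 6.69 kb away and the nearest of them, differed by -0.13 over both conditions (95% interval -0.46 to 0.21, limma adjusted p = 0.708). Rbm3, a cold-induced RNA-binding protein gene 48.5 kb away, differed by -0.29 (limma adjusted p = 0.121). Suv39h1 and Rbm3 both overlap exons of other genes, so their counts are less certain.

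The 4 tested genes whose pattern over the 10 libraries was most like that of Was, by the root mean square difference of centred log2 values, were Gm20056 (0.789), Eef1a2 (0.791), Serpinb9b (0.806) and Ppp1r1a (0.811), where the pattern of Was itself had a root mean square of 1.85. Eef1a2, a translation elongation factor gene, ran from 53.0 to 156 in WT and from 8.39 to 22.1 in WKO libraries. Ppp1r1a, which encodes a phosphatase inhibitor, ran from 23.3 to 48.9 and from 0 to 11.4. Each was lower in all 5 WKO libraries than in all 5 WT libraries, which the measure selects for. Gm20056 is covered in full by Chp1 and Serpinb9b overlaps Gm36099, so those counts are uncertain.

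Genes that act around the family were described from lists, which were chosen with earlier results of these data known. Among 26 genes for activators and partners of WASp and N-WASp, 25 were tested, and 2 fell while 0 rose in WKO for the mean of both conditions, where 2.67% of all tested genes fell and 2.9% rose. Pstpip1, which encodes an adaptor that binds WASp, had between 1463 and 1769 normalized reads in the WT and between 1060 and 1300 in the WKO libraries, a log2 change of -0.48 (limma adjusted p = 0.0110). Cblb, a ubiquitin ligase gene, had between 1601 and 2911 in the WT and between 1151 and 1888 in the WKO libraries, and fell by 0.65 (limma adjusted p = 0.0157). WKO confined values of Cblb reached into the WT unconfined range. The Pstpip1 call was lost without WT unconfined replicate 1 or WKO unconfined replicate 1 (limma adjusted p = 0.0597 and 0.0667), and that of Cblb without WT unconfined replicate 1 or either WKO unconfined library (limma adjusted p between 0.0620 and 0.0892). None of the 25 was called in the 5 other comparisons, with limma or with edgeR. At an unadjusted p under 0.05, limma counts were 3 (unconfined), 7 (confined), 7 (mean of both), 5 (confinement in WT), 4 (confinement in WKO) and 1 (interaction). Shares of all tested genes were 9.6%, 16.8%, 20.2%, 12.2%, 14.1% and 2.07% in the same order. The list's median was -0.01 for the mean of both conditions.

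The WASH complex and retromer, partners of Washc1 in sorting cargo from endosomes, gave 0 calls among 9 tested genes in all 6 comparisons with limma and with edgeR. At an unadjusted p under 0.05 there were 3 for the mean of both conditions, where 20.2% of all tested genes were, and 0 in the others. The 2 smallest p were those of Washc2, a WASH subunit gene with a log2 difference of 0.20 (limma adjusted p = 0.158), and Snx27, a retromer adaptor gene with 0.20 (limma adjusted p = 0.227). The list's median was -0.04.

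In the WAVE complex, which drives Arp2/3 downstream of Rac, 9 of 11 listed genes were tested, and 1 rose and 1 fell in WKO, both in confined cells and for the mean of both conditions. Of all tested genes 1.38% rose and 1.2% fell in confined cells, and 2.9% and 2.67% for the mean. At an unadjusted p under 0.05, limma gave 0 of the 9 in unconfined cells, 2 in confined cells and 3 for the mean. Shares of all tested genes were 9.6%, 16.8% and 20.2%. For confinement it was 3 in WT and 1 in WKO, where 12.2% and 14.1% were, and 1 for the interaction (2.07%). Cyfip2, a subunit that binds Rac, was 3312, 3099 and 3198 in WT confined and 2094, 2435 and 2224 in WKO confined libraries, a log2 change of -0.51 (limma adjusted p = 0.0185). Abi3, an Abi family subunit, was 104, 116 and 143 against 418, 295 and 369, and rose by 1.57 (limma adjusted p = 0.0130); exons of Gngt2, Phospho1 and Zfp652 overlap Abi3, and Zfp652 covers 68.2% of its transcript, so these counts are uncertain. For the mean of both conditions Cyfip2 fell by 0.38 (limma adjusted p = 0.0160) and Abi3 rose by 0.97 (limma adjusted p = 0.0224). Both of these calls were lost without WT unconfined replicate 1 or either WKO unconfined library, and that of Abi3 also without WT confined replicate 2 or 3 (limma adjusted p between 0.0769 and 0.0839 for Cyfip2 and between 0.0511 and 0.106 for Abi3). In WT, Abi3 also fell with confinement, by 1.47 (limma adjusted p = 0.0386), from 219 and 512; without WT unconfined replicate 3 the fall was 0.87 and no longer passed (limma adjusted p = 0.323). That call was also lost without either WKO unconfined library or any WT confined library, with no filter on low values and in a fit on only the groups compared (limma adjusted p between 0.0549 and 0.155). The confined calls were lost for Cyfip2 without any 1 of the 3 WT confined libraries and in a fit on only the groups compared, and for Abi3 without WT confined replicate 2 or 3 (limma adjusted p between 0.0606 and 0.0905 over both genes). Of the 2 untested genes, Wasf3 had 0 reads in all libraries and Wasf1 had 19 reads in total; Wipf3, the third WIP family gene, had 0 reads in all libraries.

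The Arp2/3 complex, the common target of the family, gave 0 calls among 10 tested genes in all 6 comparisons with limma and with edgeR. At an unadjusted p under 0.05 there were 1 in unconfined cells, 1 in confined cells, 2 for the mean of both, 1 for confinement in WT and 0 in the other 2 comparisons; of all tested genes it was 9.6%, 16.8%, 20.2% and 12.2% in the first 4 of these. For the mean of both conditions 2 of the 10 had a log2 difference above 0, with a median of -0.11. The smallest p were those of Actr2, which encodes Arp2 (-0.27, limma adjusted p = 0.126), and of Arpc4, a core subunit (-0.19, limma adjusted p = 0.143), whose exons overlap Ttll3. Among 11 other regulators of Arp2/3, limma gave an unadjusted p under 0.05 for 1 in unconfined cells, 4 in confined cells and 5 for the mean. Shares of all tested genes were 9.6%, 16.8% and 20.2%. For confinement it was 2 in WT and 2 in WKO, where 12.2% and 14.1% were, and 0 for the interaction (2.07%). After adjustment, 1 of the 11 rose in WKO, where 2.9% of all tested genes rose for the mean of both conditions and 1.38% in confined cells. It was Gmfg, which encodes a factor that takes branches apart. Its normalized read count was between 196 and 336 in the WT and between 391 and 555 in the WKO libraries. Gmfg rose by 0.85 for the mean of both conditions (limma adjusted p = 0.00986) and by 0.87 in confined cells (limma adjusted p = 0.0411). The call in confined cells was lost without any of 8 libraries, all except WT confined replicate 6 and WKO confined replicate 1, and also with no filter on low values and in a fit on only the groups compared (limma adjusted p between 0.0569 and 0.143), and that for the mean without WT unconfined replicate 1 or WKO unconfined replicate 3 (limma adjusted p = 0.0583 and 0.0745).

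**Figure D4:**
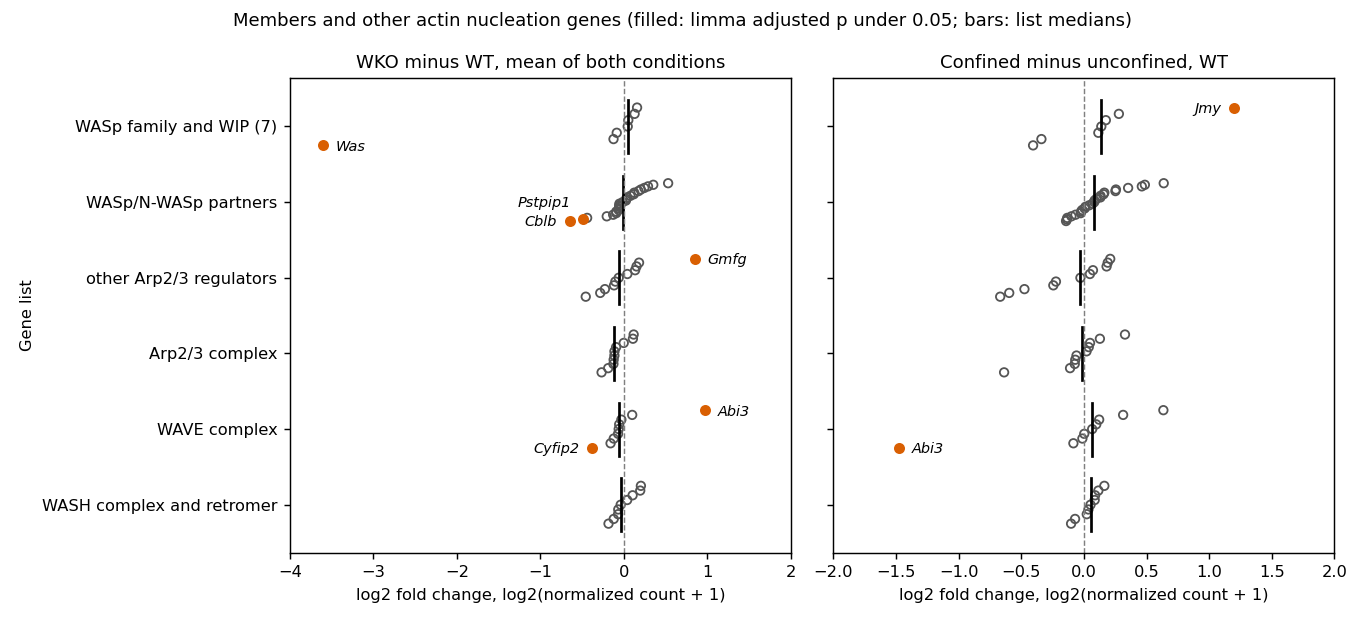
Log2 fold changes (horizontal axes, log2(normalized read count + 1) scale) of the 7 genes and of the 5 surrounding gene lists (vertical axis), for WKO minus WT over both conditions and for confined minus unconfined in WT. Points are genes, filled where the limma adjusted p is under 0.05, and bars are list medians; Was stands alone at -3.61 and Jmy at 1.20, while most genes of the lists lie near 0.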

How the data were processed

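Each mRNA library started from 5 ng of RNA, per the labels' protocols. The values the authors deposited are normalized counts, 1 signal for each gene in each library. Reads were handled with FastQC, Trim Galore and STAR on GRCm38 (mm10), per the submitters' processing notes; versions, the counter, the gene annotation and strand handling are not given in the sources used here. In every library 100% of values were whole multiples of the worth of 1 read (tolerance 1e-06), so reads were recovered by division. With 1 factor for a whole library, differences in gene length are not corrected.

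Values were tested as log2(normalized count + 1), which understates changes of low genes, with limma 3.58.1 in R 4.3.3. The model had 1 mean per group over all 10 libraries (6 residual degrees of freedom, empirical Bayes with a trend), Benjamini-Hochberg adjustment over 12455 genes and a threshold of 0.05. Intervals are 95% moderated intervals. edgeR 4.0.16 on the recovered reads, other scalings, filters, pseudocounts, a replicate block and leaving out each library were alternatives. The fit was tested on simulated data. Pathway lists and cell markers were fixed lists; the members and lists were chosen with earlier results of these data known. Named genes were the 7 members, list members past the threshold (at most 4 per list, or the 2 with the smallest p), 4 genes most like Was and 4 neighbours on each side. The alternatives for genes other than the members were chosen after seeing the data. Same-numbered libraries were checked for pairing and did not deviate together, but groups of 2 and 3 libraries cannot settle whether the numbers pair them. No 2 replicates agreed within sampling noise. Floors cover counting error only, since reads without molecular identifiers are not independent molecules. Shared sequence was searched with blastn 2.17.0. Transcript lengths came from GENCODE M21, which holds 12315 of the tested identifiers. Protein sequences were not used here.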

Additional observations from a re-analysis of the deposited data

How the results depend on the processing

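Of 700 values of the 7 genes under alternatives, 667 kept direction and call, 28 reversed, 4 lost and 1 gained the call; no called value reversed. None of 300 values of the 6 relatives in genotype comparisons passed (lowest adjusted p 0.173). Groups of 2 and 3 libraries limit all calls, and Whamm has the fewest reads of the relatives.

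The number of genes called was 18 in the unconfined genotype comparison, 322 in the confined one and 694 for the mean; with no filter on low values it was 10, 186 and 438. Fits on only the groups compared called 189 and 90 genes for genotype, 455 for confinement in WT (144 otherwise) and 33 in WKO (214 otherwise), with 0 members in WKO (Jmy 1.29, limma adjusted p = 0.0658). edgeR called 15, 319, 696, 116, 186 and, for the interaction, 0. Upper-quartile scaling moved the median of all genes to -0.0787 (WT) and -0.116 (WKO) for confinement and changed the split of higher and lower calls from 111 and 33 to 103 and 59 in WT, and from 185 and 29 to 159 and 52 in WKO; Wipf1 in WKO was then -0.0085. With exon unions as length, 14 of 28 places in the order per kilobase stayed.

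With the replicate block 245 genes were called in the unconfined genotype comparison. Of the same-number pairs, 0 of 7 had a correlation above 0.1 (-0.110 to 0.0764), and 0 of 8 libraries were closest to a same-number partner. With 2 libraries in each unconfined group, deviations from the group mean mirror each other. This check therefore cannot settle whether the numbers pair libraries. In the block Wipf2 reversed to -0.0154 (genotype, confined), Wasl to -0.1255 and Wipf1 to -0.0041 (confinement, WT), and the interactions of Wipf1 to 0.1059 and Jmy to -0.0383; Cyfip2 in confined cells missed the threshold (-0.52, limma adjusted p = 0.0931).

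Leaving out 1 library gave 4 (without WT unconfined replicate 3) to 141 genes called (without WKO confined replicate 5) in the unconfined genotype comparison, 58 (without WT confined replicate 2) to 701 (without WKO confined replicate 1) in the confined one and 169 (without WKO unconfined replicate 3) to 1115 (without WKO confined replicate 1) for the mean. For confinement it gave 22 (without WT unconfined replicate 1) to 397 (without WKO confined replicate 5) in WT and 43 (without WKO unconfined replicate 1) to 1043 (without WKO confined replicate 1) in WKO. Members called ranged from 0 to 1 in WT and from 0 to 2 in WKO. Uncalled values whose sign changed ran from -0.0242 to 0.301 (Was, confinement in WT), -0.0639 to 0.1358 (Wasl, unconfined genotype), -0.1535 to 0.0008 (Whamm, same), -0.0708 to 0.1685 (Wipf2, confined genotype), -0.3041 to 0.1126 (Washc1, same), and for the mean genotype -0.2039 to 0.0044 (Washc1) and -0.027 to 0.1299 (Whamm). Interactions ran from -0.098 to 0.057 (Wipf1), -0.1633 to 0.0759 (Wipf2), -0.2003 to 0.2164 (Washc1) and -0.0411 to 0.238 (Jmy). Among neighbours of Was, the mean genotype difference ran from -0.0736 to 0.0582 (Wdr13), -0.0381 to 0.2221 (Tbc1d25) and -0.2109 to 0.0076 (Suv39h1). The cause of these changes was not tested.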
